A study of Mus musculus with 4 samples.

Results

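The response of control mouse liver to partial hepatectomy was read as the difference between 2 microarrays, 1 of control liver at 0 h and 1 of control liver 30 h after the operation. These are 2 of the 4 arrays of the study, and the difference was taken for all 19505 genes that had a probe set with 1 gene symbol. A gene with several probe sets was represented by the set with the highest mean over the 4 arrays. The study asked what loss of Mcu, which encodes the pore of the uniporter that lets calcium into mitochondria, does to regenerating liver, and the arrays described here are its control arm. The mice were males of 10 to 12 weeks on the C57BL6J strain. Per the treatment protocol all of them, controls included, carried floxed Mcu alleles, although the control arrays are labelled Wild type by genotype. Controls received AAV8-TBG-Null, an adeno-associated virus without a transgene behind the hepatocyte-directed TBG promoter, and their knockdown littermates received AAV8-TBG-Cre. After 5 weeks 70% of the liver was removed, and the remnant was frozen at 30 h. The series text gives pools of 4 animals per genotype, so each array is 1 pooled sample and no value carries a replicate error. No animals operated on without loss of liver were profiled and the hour of sampling is not stated, so the loss of liver, the operation and the time of day cannot be told apart. A description field of all 4 samples mentions feeding with ethanol, and no other field does. In a piece of tissue, fewer cells of a type and less RNA per cell cannot be told apart either.

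Hepatocytes of an adult liver rarely divide. After part of the liver is removed, hepatocytes of the remnant leave quiescence, copy their DNA and divide while the organ goes on making plasma proteins, bile and glucose. Cytokines from macrophages and growth factors such as HGF prime and drive this entry, and the acute phase response, in which hepatocytes secrete inflammation-related plasma proteins, accompanies it. Origins of replication are licensed by loading the MCM helicase, cyclin E with Cdk2 starts S phase, and cyclin A and cyclin B with Cdk1 carry the cell through to mitosis.

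Control liver at 30 h carried far more transcript of the DNA replication machinery, of histones, of acute phase proteins and of metallothioneins than at 0 h. Male-biased hepatocyte genes were mostly lower, with 20 of 21 below 0 and 7 of them lower by 2-fold or more. Most of the transcriptome differed little. Of 19505 genes, 18254 (93.6%) lay within 2-fold between the arrays, 818 (4.19%) were higher by 2-fold or more at 30 h and 433 (2.22%) were lower by 2-fold or more. Among the 9759 brighter genes, those whose mean over the 4 arrays reached the median of all gene means (3.83 on the log2 scale), 584 (5.98%) were higher by 2-fold or more and 157 (1.61%) lower by 2-fold or more. Larger differences were mostly increases, with 116 genes at least 4-fold higher against 11 lower, and 31 at least 8-fold higher against 5 lower.

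The direction of the calls depended on how the arrays were scaled. Of the genes 2-fold apart, 65.4% were higher at 30 h in the deposited values, 63.4% after quantile normalization, 68.5% after cyclic loess and 46.7% when each array was centred on its brighter genes. Among brighter genes these shares were 78.8%, 66.4%, 71.0% and 64.7%. The median difference of all genes was -0.01 in the deposited values and that of brighter genes 0.10, and centring shifted the median of all genes to -0.13. The median also differed with brightness, from -0.13 to 0.22 over 10 bins of genes by mean expression, and was highest in the brightest bin. A list median of 0.2 in bright genes is therefore close to the general level, and list directions that turn under another scaling are named where they occur.

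**Figure D1:**
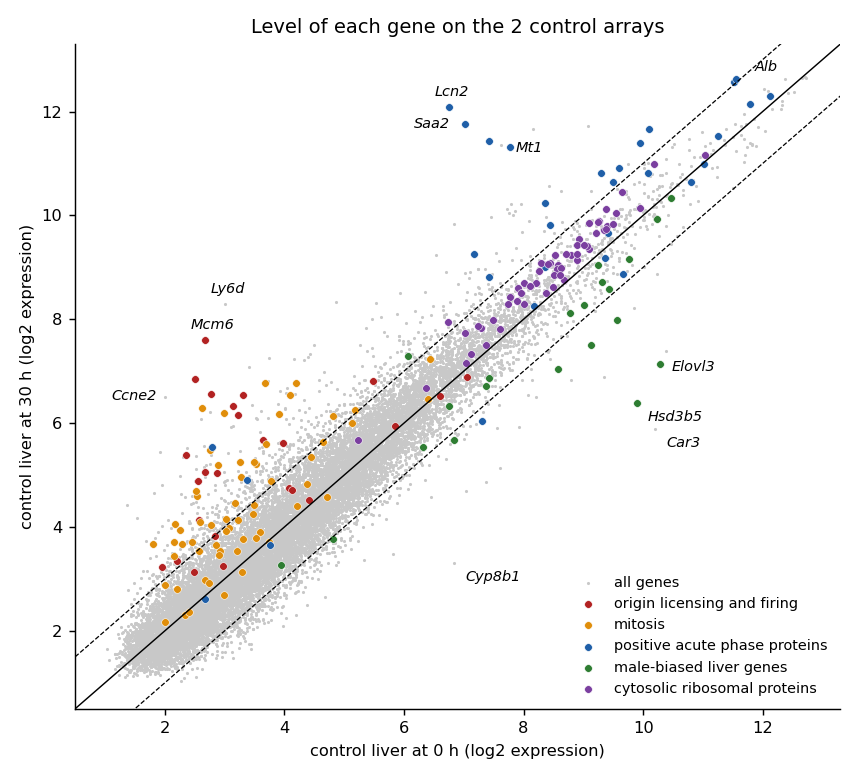
Level of each of 19505 genes on the control array at 0 h (horizontal axis, log2 expression) and at 30 h (vertical axis, log2 expression), 1 point per gene, with the members of 5 lists coloured. The solid line marks equal levels and the dashed lines 2-fold differences. Origin licensing genes such as Mcm6 (2.67 and 7.60) lie far above the lines, most acute phase genes lie above them, and Hsd3b5 (9.90 and 6.38) and Elovl3 (10.29 and 7.14) lie far below.

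The tissue carried the markers of liver on both arrays. All 12 hepatocyte markers were measured, at 7.84 to 12.65 at 0 h and 7.91 to 12.65 at 30 h, and none differed by 2-fold. Albumin (Alb) read 12.65 at both times and Hnf4a, the nuclear receptor that maintains hepatocyte identity, 7.84 and 7.91. Array signals can saturate at the bright end, where a difference is then understated. The median difference of the list, 0.09, turned to -0.13 after cyclic loess and to -0.04 with centring.

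Promoter sequence is shown for 4 genes, 1 each of the origin licensing, mitosis, acute phase and clock lists, because letters bound by a known class of factor lie in them. Cdk1, Apcs and Ciart are the members of the mitosis, acute phase and clock lists with the largest differences whose 250 bases hold a match to the letters shown. Windows came from the RefSeq table of assembly GRCm38.p6, from 250 bases before to 50 bases after each start, and 19143 windows covered 15691 of the 19505 genes. The 250 bases before the start are printed 5′ to 3′ on the gene's strand, with the matched letters in capitals, and positions count back from the start. Mcm6 encodes a subunit of the replicative helicase and lies on the minus strand at chr1:128359706-128359955. Cdk1, the mitotic kinase, is at chr10:69352913-69353162, minus strand. Apcs, serum amyloid P, is at chr1:172895055-172895304, minus strand. Ciart, a repressor of the clock, is at chr3:95882229-95882478, minus strand.
Mcm6: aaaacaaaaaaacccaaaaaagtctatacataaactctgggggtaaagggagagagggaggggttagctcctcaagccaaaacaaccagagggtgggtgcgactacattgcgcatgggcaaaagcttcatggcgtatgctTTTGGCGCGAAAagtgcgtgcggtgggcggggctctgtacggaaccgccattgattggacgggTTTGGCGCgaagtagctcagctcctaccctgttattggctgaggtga
Cdk1: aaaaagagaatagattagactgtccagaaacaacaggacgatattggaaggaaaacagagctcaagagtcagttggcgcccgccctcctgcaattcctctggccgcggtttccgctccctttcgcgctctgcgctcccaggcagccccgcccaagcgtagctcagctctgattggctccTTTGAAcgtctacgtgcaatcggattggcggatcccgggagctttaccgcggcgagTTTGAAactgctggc
Apcs: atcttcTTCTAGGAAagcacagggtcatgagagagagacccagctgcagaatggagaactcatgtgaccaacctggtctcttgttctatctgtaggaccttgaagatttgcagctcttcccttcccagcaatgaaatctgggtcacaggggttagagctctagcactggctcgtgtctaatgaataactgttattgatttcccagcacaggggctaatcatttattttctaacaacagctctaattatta
Ciart: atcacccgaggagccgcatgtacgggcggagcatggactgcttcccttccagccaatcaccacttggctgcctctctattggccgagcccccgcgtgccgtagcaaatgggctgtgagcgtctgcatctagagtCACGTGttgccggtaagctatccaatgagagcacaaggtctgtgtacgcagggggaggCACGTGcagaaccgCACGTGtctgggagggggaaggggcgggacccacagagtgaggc

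In Mcm6 the capitals are E2F letters (TTTCCCGC, TTTGGCGC, TTTCGCGC or TTTGCCGC on either strand), which bind the E2F factors that switch on S phase genes. They matched at -110, -106 and -47, and the matches at -110 and -106 overlap. Such letters occurred in 11 of 24 windows of the origin licensing list (45.8%), 9 of 33 of the replication fork list (27.3%) and 8 of 26 of the G1 and S phase list (30.8%), against 2.94% of all windows. Of windows of genes higher by 2-fold or more at 30 h 8.52% held them, and of genes lower by 2-fold or more 1.19%.

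The capitals in Cdk1 are TTTGAA, the cell cycle homology region through which the DREAM complex represses mitotic genes in quiescent cells, at -71 and -15. It was present in 36 of 58 windows of the mitosis list (62.1%) and 15.3% of all windows. Windows of genes higher by 2-fold or more held it in 17.3% and those of genes lower by 2-fold or more in 18.4%. The letters CCAAT, bound by NF-Y and searched after the other motifs had been counted, occurred in 43 of those 58 windows (74.1%) and 37.9% of all windows. They also occurred in 17 of 23 windows of the clock list (73.9%).

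Capitals in Apcs mark TTCNNNGAA, letters bound by STAT factors, at -244. They occurred in 7 of 24 windows of the acute phase list (29.2%) and 7.75% of all windows. Windows of genes higher by 2-fold or more held them in 6.72% and those of genes lower by 2-fold or more in 8.11%. Lcn2 and Saa2, the acute phase genes with the largest differences, had no match in their windows. In Ciart the capitals are CACGTG, the E-box bound by the clock activator CLOCK:BMAL1, at -116, -58 and -44. The E-box occurred in 6 of 23 windows of the clock list (26.1%) and 8.11% of all windows. The D-box letters TTANGTAA occurred in 4.35% of windows of that list and 2.06% of all windows. Usp2, the clock gene with the largest difference, had no E-box in its window, and neither Usp2 nor Ciart had a D-box. A match is a description of the sequence, no binding was measured, and a missing match says only that these letters are not in the window.

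Licensing of replication origins was the list furthest from 0 at 30 h. Its median difference was 1.56 over 25 measured genes of 27, with 16 higher by 2-fold or more and none 2-fold lower. Mcm6 read 2.67 at 0 h and 7.60 at 30 h, and the low value at 0 h makes its fold uncertain. Mcm4 read 2.51 and 6.85, Mcm2 3.31 and 6.54, Mcm5 3.14 and 6.33, and Mcm3 2.36 and 5.38. Together with Mcm7, which is not analysed here, these 5 proteins form the ring-shaped helicase. Mcm8, a relative outside that ring, read 4.07 and 4.75, and Mcm10 read 7.05 and 6.88.

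The loaders of the helicase were also higher at 30 h. Cdt1, which brings the ring to the origin, read 2.77 and 6.56, and its partner Cdc6 read 2.68 and 5.05. The origin recognition complex was uneven: Orc6 stood at 3.97 and 5.61 and Orc1 at 1.96 and 3.23, while Orc3 read 6.61 and 6.53 and Orc4 4.41 and 4.52. Among factors that fire the licensed origin, Cdc45 read 3.64 and 5.68, Gins1 2.56 and 4.89, Gins2 2.87 and 5.04, and Gins4 5.48 and 6.81. The scaffold Topbp1 read 3.23 and 6.15. Gins3 differed by 0.59, and Dbf4, the activating subunit of the Cdc7 kinase, by 0.98.

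At the replication fork 21 of 31 genes were higher by 2-fold or more and none lower, with a median difference of 1.19. Pcna, the sliding clamp of the polymerases, read 6.83 at 0 h and 9.84 at 30 h. The flap nuclease Fen1 read 3.05 and 5.43 and the catalytic subunit of polymerase epsilon, Pole, 2.99 and 5.06. Chromatin assembly behind the fork followed the same direction, with the histone chaperone Asf1b at 3.72 and 6.81 and the assembly factor subunit Chaf1b at 2.76 and 5.21. Uhrf1, which guides maintenance methylation of new DNA, read 4.34 and 6.22. Clamp loader subunits Rfc5 and Rfc2 differed by 1.87 and 1.47. Not every subunit was higher: Pold2 (7.72 and 7.50) and Pold3 (7.10 and 7.11), accessory subunits of polymerase delta, were near 0 while its catalytic subunit Pold1 read 3.34 and 4.79.

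Nucleotide supply showed a narrower pattern, in which 7 of 27 genes were higher by 2-fold or more and the median difference was 0.48. Both subunits of ribonucleotide reductase, which makes deoxynucleotides, stood out. Rrm2 read 3.40 and 7.09 and Rrm1 4.49 and 7.51. Slc19a1, the reduced folate carrier, read 2.77 and 5.38, but 5.04 and 5.21 in knockdown liver, so the control array at 0 h was the low one of the 4. Tyms, the thymidylate synthase, read 5.22 and 6.57 and Umps, the last enzyme of uridine monophosphate synthesis, 5.0 and 6.36. In purine synthesis Ppat read 3.16 and 4.38, Paics 7.34 and 8.03 and Adsl 4.37 and 5.19.

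Among regulators of G1 and S phase, 13 of 26 genes were higher by 2-fold or more, and the median difference was 0.97. Cyclin E2 (Ccne2) read 2.01 at 0 h and 6.51 at 30 h and cyclin E1 (Ccne1) 4.03 and 6.58. Their kinase Cdk2 read 3.73 and 6.10. Cyclin A2 (Ccna2) read 3.96 and 5.62 and the phosphatase Cdc25a, which activates Cdk2, 2.40 and 4.11. The E2F genes differed unevenly: E2f8 read 3.52 and 6.09, E2f1 3.65 and 5.46 and E2f2 3.59 and 5.08, but E2f3 differed by 0.21, E2f4 by 0.41, E2f5 by 0.09 and E2f7 by -0.17. Of the pocket proteins that hold E2F in check, Rbl1 read 2.45 and 4.60, Rb1 differed by 0.46 and Rbl2 by -0.30. The D-type cyclins Ccnd2 and Ccnd3 differed by 0.22 and 0.40, and Ccnd1 is not analysed here.

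**Figure D2:**
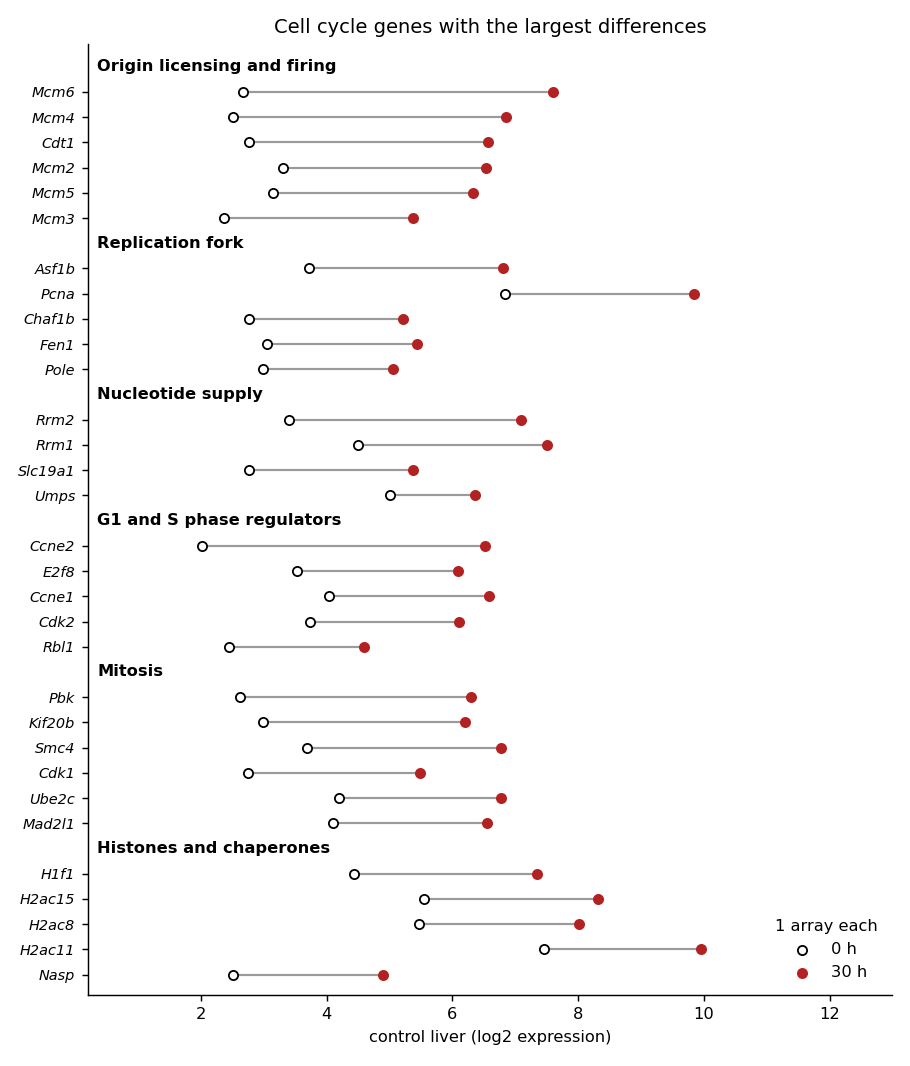
Levels of 31 cell cycle genes in control liver at 0 h (open circles) and 30 h (filled circles), in log2 expression on the horizontal axis, grouped by role and drawn for the members with the largest positive differences of each list. Each circle is 1 array, and levels of different genes are not comparable because each has its own probes. Mcm6 and Ccne2 have the longest lines (2.67 to 7.60 and 2.01 to 6.51).

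Some brakes of the cycle were higher beside its drivers. Cdkn1a, which encodes the CDK inhibitor p21, read 4.05 at 0 h and 6.67 at 30 h, and Cdkn2c, which encodes p18, read 3.93 and 5.64. Mdm2, the ubiquitin ligase that restrains p53 and is its target, read 4.96 and 6.20. The kinase Plk3 read 3.92 and 6.61. Cdkn1c differed by -0.70 and Cdkn1b by 0.05, so the inhibitor genes did not share a direction. Over the list of 21 measured CDK inhibitors and p53 targets, 5 were higher by 2-fold or more, none lower, and the median was 0.36.

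Mitotic genes were higher at 30 h, with 29 of 60 higher by 2-fold or more, none lower and a median of 0.97. Many of them were dim, and 23 of the 60 reached the brightness limit of 3.83. Entry kinase Cdk1 read 2.75 and 5.49 and its regulator Plk1 3.26 and 5.25. The kinase gene Pbk read 2.62 and 6.30. Condensin subunits that compact chromosomes differed widely, Smc4 reading 3.68 and 6.77 and Ncapg 2.52 and 4.69. Spindle checkpoint gene Mad2l1 read 4.10 and 6.55, Nek2 2.89 and 5.20 and the kinetochore gene Nuf2 2.54 and 4.60. The anaphase-promoting complex partner Ube2c read 4.19 and 6.77. The midzone kinesin Kif20b read 2.99 and 6.20. Mki67, the widely used proliferation antigen, read 3.91 and 6.18. Foxm1 and Ccnb1 are not analysed here.

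Canonical histones are made in S phase, to package new DNA. Of 44 histone and histone chaperone genes, 25 were higher by 2-fold or more, none were 2-fold lower and the median was 1.07. The linker histone H1f1 read 4.43 and 7.34, and the core histone genes H2ac15, H2ac8, H2ac11 and H2ac22 read 5.54 and 8.31, 5.47 and 8.01, 7.46 and 9.96, and 7.96 and 10.21. Histone genes of a class are near-identical copies, so single members are uncertain.

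DNA repair genes had a median of 0.42, with 10 of 31 higher by 2-fold or more. Those with the largest differences act in homologous recombination and replication-linked repair. Rad51ap1 read 1.36 and 4.43, Brca2 2.65 and 5.56, Rad18 1.82 and 4.66 and the helicase Blm 2.06 and 4.14. Rad51ap1, Rad18 and Blm were below the brightness limit, so their folds are uncertain. The 16 brighter members of the list had a median of 0.28. The checkpoint kinase Chek1 read 4.34 and 5.89 while Atr read 3.78 and 3.81. End-joining genes Xrcc5 and Xrcc6 differed by -0.07 and 0.29.

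The immediate early factors, which peak within hours of the operation, were near the general level at 30 h. Their median was 0.27 over 31 genes, with 3 higher by 2-fold or more and 1 lower. Egr1 read 6.04 and 7.93, Dusp6, a phosphatase that dampens ERK, 5.79 and 6.95, and Fos 3.78 and 4.86. Jun read 5.52 and 6.43. Ier5 was lower at 30 h, at 5.37 and 4.35, and Egr2 and Egr3 differed by -0.68 and -0.82. The mean of the probe sets of Egr3 differed by -0.48. Myc, named after its values were seen, read 4.43 and 4.56.

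Ligands and receptors of the HGF, EGF and FGF families had a median of 0.11 over 26 genes, which turned to -0.06 after quantile normalization, -0.01 after cyclic loess and -0.02 with centring. Hgf itself, the main hepatocyte mitogen, read 6.05 and 6.87, while Hgfac, the protease that activates it, read 7.40 and 6.36. The receptor gene Egfr read 7.39 and 8.01 and Erbb3 6.48 and 5.79. Fgfr1 read 2.40 and 4.07 and Fgfr2 4.83 and 5.81.

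The growth hormone and insulin-like growth factor axis leaned slightly below the general level, with 1 gene higher by 2-fold or more and 2 lower. Its median was -0.23, against -0.01 over all genes, and 15 of 23 genes were below 0. The 19 brighter members had a median of -0.13, and in the knockdown pair the list median was -0.03. The growth hormone receptor Ghr read 9.50 at 0 h and 8.89 at 30 h, and its effectors Stat5b and Stat5a read 6.15 and 5.21, and 5.43 and 4.69. Bcl6, a repressor under STAT5 control, read 5.45 and 4.26 and the binding protein Igfbp3 4.45 and 3.39. In the other direction Igf2r read 4.50 and 5.92, and Igfbp1, which hepatocytes make during regeneration and fasting, 6.83 and 7.64.

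Cytokine signalling genes went both ways. In the IL-6 and STAT3 list 5 of 22 genes were higher by 2-fold or more and none lower, with a median of 0.31. Socs3, the feedback inhibitor of this pathway, read 3.30 and 4.95 and the interleukin-1 receptor antagonist Il1rn 2.87 and 4.43. In knockdown liver Socs3 read 5.37 and 5.11, so the control array at 0 h was the low one of the 4. In the knockdown pair no gene of the list was 2-fold higher, and the list median was -0.265. The phosphatase Ptpn11 read 4.51 and 5.64. The receptor genes Il1r1 and Lifr differed by 0.97 and -0.88. The ligand genes Il6, Lif and Osm were dim and differed by -0.81, -0.73 and -0.47.

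Of the TGF-beta and activin list, 3 of 32 genes were higher by 2-fold or more with a median of 0.14. Id1, a target of BMP signals, read 4.37 and 5.80, Smad2 4.14 and 5.34 and Bmp2 3.04 and 4.19. The YAP target Ccn1 read 5.57 and 6.49 and Amotl1 5.00 and 3.97, and the Hippo list as a whole had a median of 0.14 over 21 genes.

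Acute phase genes were mostly higher at 30 h, and 5 of them were among the 40 largest increases of brighter genes. Of 31 measured genes, 17 were higher by 2-fold or more and 1 was lower, and the median was 1.07. Lcn2, a siderophore-binding protein, read 6.76 at 0 h and 12.09 at 30 h, a 40.2-fold difference. Serum amyloid genes Saa2 and Saa1 read 7.02 and 11.76, and 7.42 and 11.44. Orosomucoid genes Orm2 and Orm3 read 7.77 and 11.31, and 2.79 and 5.54. Apcs read 8.36 and 10.23, Serpina3n 9.30 and 10.81, Fgl1 9.95 and 11.40 and Cd14, the lipopolysaccharide co-receptor, 3.37 and 4.91. The Saa and Orm copies are near-identical in sequence, so their shares of the signal may be uncertain.

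Other plasma proteins did not share this. Over 50 measured genes for coagulation, complement and carrier proteins the median was 0.00, 1 gene was higher by 2-fold or more and none lower. The median fell to -0.236 after quantile normalization and -0.205 after cyclic loess. Under these scalings 11 and 9 genes were above 0, none was 2-fold higher, and 2 and 1 were 2-fold lower. Itih2 read 8.70 and 9.74. The corticosteroid carrier Serpina6 read 7.16 and 6.23 and the complement gene C8b 9.01 and 8.28. Fibrinogen genes Fga, Fgb and Fgg, in the acute phase list, differed by 0.36, 0.28 and 0.17. Hamp, which encodes the iron hormone hepcidin, read 11.01 and 10.98.

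Metallothioneins, which bind zinc, were among the largest differences. Mt1 read 7.63 and 11.36 and Mt2 8.15 and 11.67, while the brain-enriched Mt3 was dim at 3.13 and 3.03. The zinc importer Slc39a14, induced by inflammation, read 5.81 and 6.74. Heme oxygenase Hmox1 read 5.50 and 6.61 and the manganese exporter Slc30a10 5.52 and 4.64. Over the 23 genes of this list 3 were higher by 2-fold or more, none lower, and the median was 0.31.

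**Figure D3:**
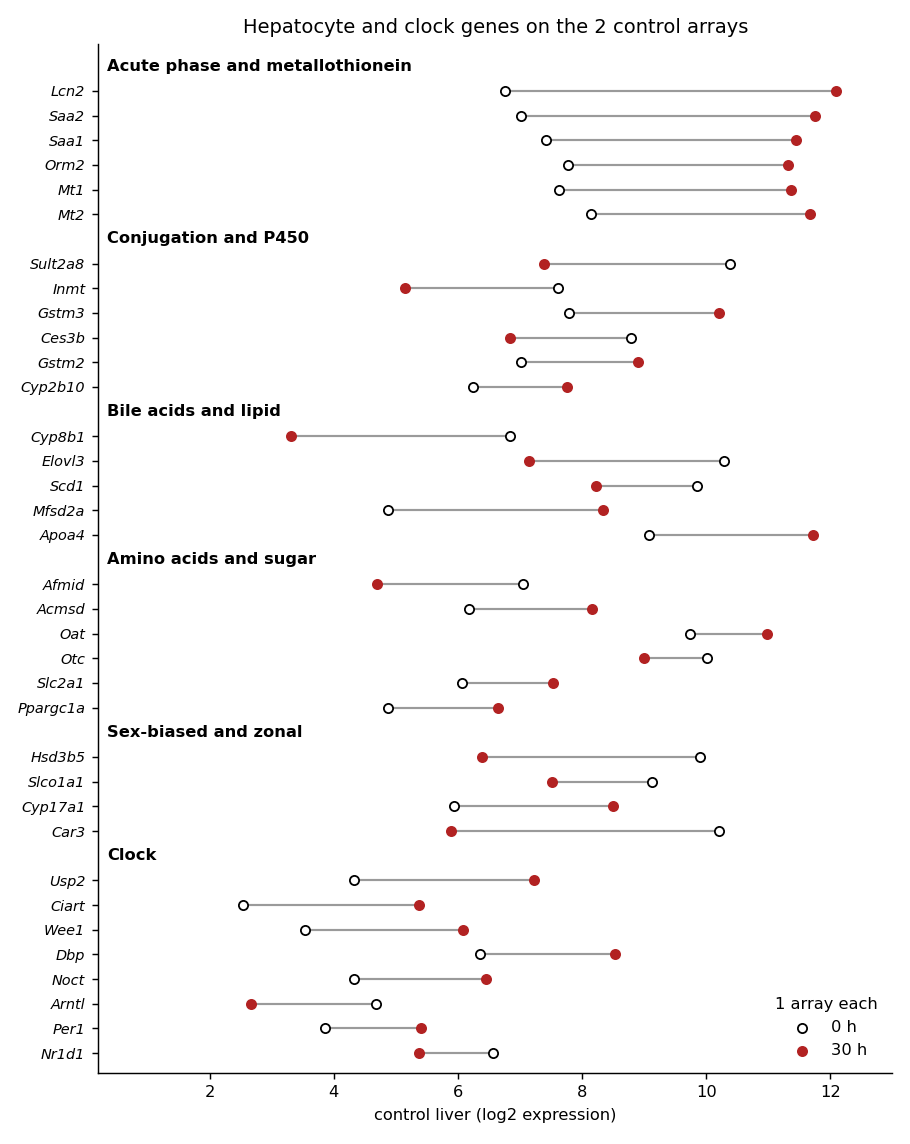
Levels of 35 hepatocyte and clock genes in control liver at 0 h (open circles) and 30 h (filled circles), in log2 expression on the horizontal axis, grouped by role. Each circle is 1 array. Lcn2 (6.76 and 12.09) lies further right at 30 h, while Car3 (10.20 and 5.89), Cyp8b1 (6.84 and 3.31) and Sult2a8 (10.39 and 7.39) lie further left.

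Drug-metabolising enzymes differed gene by gene and not as a class. Over 47 cytochrome P450 genes of families 1 to 4 the median was -0.08, with 3 higher by 2-fold or more and 1 lower. The median fell to -0.28 after quantile normalization and -0.26 after cyclic loess, with 5 and 4 genes 2-fold lower and 3 still higher. Cyp2b10, the classic target of the receptor CAR, read 6.24 and 7.76 and Cyp2a4 6.70 and 8.11. Cyp2c54 read 8.42 and 7.40. Conjugating enzymes and carboxylesterases had 5 of 46 genes higher by 2-fold or more and 9 lower. The glutathione transferases Gstm3 and Gstm2 read 7.79 and 10.21, and 7.02 and 8.90. In knockdown liver they read 8.35 and 9.33, and 7.97 and 7.92. The sulfotransferase Sult2a8 read 10.39 and 7.39, the methyltransferase Inmt 7.61 and 5.14, the carboxylesterases Ces3b and Ces3a 8.79 and 6.84, and 10.24 and 8.87, and the glucuronosyltransferase Ugt2b1 9.57 and 7.99. All these families hold close paralogs whose probes may share signal.

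In bile acid synthesis the branch enzyme stood apart. Cyp8b1, the sterol 12-alpha-hydroxylase that decides the cholic acid share, read 6.84 at 0 h and 3.31 at 30 h. Cyp7a1, the rate-limiting enzyme of the classic pathway, read 6.62 and 6.36. The conjugating genes Baat and Slc27a5 differed by -0.67 and -0.66, and Nr0b2, the repressor SHP, by -0.64. The list had a median of -0.20 over 20 genes with 1 lower by 2-fold or more. Transporters went both ways: the uptake carrier Slco1a1 read 9.13 and 7.51 and the exporter Slc47a1 6.88 and 5.77, while Slc51b, a subunit of the basolateral bile acid exporter, read 4.21 and 5.82 and Abcb1a 2.27 and 4.64. Slc51a, the other subunit of the basolateral exporter, went the opposite way to Slc51b, with a difference of -1.14. The transporter median of 0.07 turned to -0.13 after quantile normalization, -0.11 after cyclic loess and -0.05 with centring.

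Lipid genes went both ways. In fatty acid synthesis Elovl3, an elongase, read 10.29 and 7.14 and the desaturase Scd1 9.85 and 8.22, and Fasn and Acacb differed by -0.71 and -0.80. Elovl6 and Elovl1 differed by 0.77 and 0.75, and the list median of 0.04 turned to -0.12 after quantile normalization, -0.04 after cyclic loess and -0.08 with centring. Genes of lipid uptake and lipoproteins included 5 of 30 higher by 2-fold or more. Mfsd2a, a transporter of lysophosphatidylcholine lipids, read 4.87 and 8.33, the apolipoprotein genes Apoa4 and Apoa5 9.08 and 11.72, and 7.45 and 8.59, and Cd36, a fatty acid receptor, 4.50 and 5.69. In fatty acid oxidation the coactivator Ppargc1a read 4.88 and 6.65 and was the only one of 31 genes at least 2-fold apart. That list's median of 0.23 was 0.11 with centring, 0.00 after cyclic loess and -0.03 after quantile normalization. Cholesterol synthesis and uptake had no gene of 24 at least 2-fold apart in either direction, and a median of -0.07. After quantile normalization 2 of these genes were 2-fold lower and after cyclic loess 1, with medians of -0.28 and -0.27.

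Genes of glucose use and of glucose production both had medians above 0, of 0.32 and 0.28. Of 27 genes of uptake, glycolysis and the pentose phosphate path 4 were higher by 2-fold or more and 2 lower. The glucose transporter Slc2a1 read 6.06 and 7.53, the regulator Pfkfb3 4.07 and 5.51, Aldoa 6.56 and 7.71 and Ldha 9.13 and 10.13. Pdk1, which inhibits pyruvate dehydrogenase, read 5.91 and 4.62. In glucose production Pck1 and G6pc differed by 0.93 and 0.89, the kinase gene Sik1 read 4.42 and 6.30 and the glycogen-targeting subunit Ppp1r3c 7.0 and 5.69.

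Amino acid breakdown had a median of -0.02 over 47 genes, with 4 higher by 2-fold or more and 3 lower. The median fell to -0.265 after quantile normalization and -0.239 after cyclic loess. Under these scalings 1 and 2 genes were 2-fold higher and 3 lower. In the urea cycle Asl read 8.86 and 9.90 and the ornithine carrier Slc25a15 8.51 and 9.66, but Otc, which makes citrulline, read 10.01 and 9.0. Oat, which degrades ornithine, read 9.74 and 10.98. Enzymes of tryptophan breakdown parted, with Afmid at 7.04 and 4.70 and Acmsd at 6.18 and 8.16.

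Male-biased genes were the list furthest below 0. In male mice the pulsed growth hormone signal keeps male-biased liver genes high. Of 21 measured male-biased genes 20 were below 0 and 7 were lower by 2-fold or more, with a median of -0.67. Hsd3b5 read 9.90 at 0 h and 6.38 at 30 h, Elovl3 10.29 and 7.14, Slco1a1 9.13 and 7.51 and Selenbp2 8.57 and 7.04. The gene above 0, Trim24, is also in the female-biased list and read 6.06 and 7.30. Of 26 female-biased genes 5 were higher by 2-fold or more and none lower, with a median of 0.35. Cyp17a1 read 5.93 and 8.50 and Sult1e1, dim at 0 h, 1.95 and 4.81.

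Zonation along the lobule did not follow a single direction. Pericentral genes had a median of 0.06, which turned to -0.14 after quantile normalization, -0.11 after cyclic loess and -0.06 with centring. Within them Car3, carbonic anhydrase 3, read 10.20 and 5.89, the widest decrease of any brighter gene, and Oat read 9.74 and 10.98. Cyp2e1 differed by -0.53. Periportal genes had a median of 0.40, with 4 of 21 higher by 2-fold or more. Apoa4 read 9.08 and 11.72 and Hsd17b6 6.65 and 8.25, and Cyp2f2 read 9.20 and 8.42. In knockdown liver Apoa4 read 8.59 and 11.63, but Hsd17b6 read 8.02 and 7.08, so its control array at 0 h was the lowest of the 4. The knockdown pair gave the periportal list a median of -0.09, with 1 gene higher by 2-fold or more and 3 lower.

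Transcription factors of the hepatocyte had a median of -0.02 over 39 genes. Cebpa, which restrains hepatocyte growth, read 8.41 and 7.36, while its relatives Cebpb and Cebpd, induced in inflammation, read 6.74 and 7.46, and 4.81 and 6.22. The xenobiotic receptor Nr1i2 read 5.10 and 6.54. Among fetal, biliary and progenitor genes Ly6d read 3.0 and 8.30, a difference of 5.30. Tnfrsf12a, the receptor for TWEAK, read 4.40 and 7.28, and the keratins Krt8 and Krt18 of the hepatocyte cytoskeleton 8.09 and 9.89, and 7.97 and 9.68. Afp, the fetal albumin, was dim at 2.11 and 3.07, and the list median was 0.15 over 26 genes.

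Clock genes were far from equal between the arrays. Of 22 genes 7 were higher by 2-fold or more and 2 lower. Arntl, the activator BMAL1, read 4.68 at 0 h and 2.66 at 30 h and the repressor Nr1d1 6.57 and 5.37. Output genes Usp2, Ciart, Wee1, Dbp and Noct read 4.33 and 7.22, 2.53 and 5.37, 3.54 and 6.08, 6.36 and 8.53, and 4.32 and 6.45. Per1 read 3.85 and 5.41. Wee1 is also the kinase that holds Cdk1 in check. The hours of sampling are not given, so the time of day cannot be told apart from the operation in these values. Retinoid genes had a median of -0.06 over 29 genes, with Bco1, the carotene-cleaving enzyme, at 4.30 and 5.49 and Bco2 at 5.09 and 3.93.

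Genes of protein synthesis had medians above 0 and few 2-fold differences. All 56 measured cytosolic ribosomal proteins of 79 were above 0, with a median of 0.47, but 44 were after quantile normalization (median 0.19) and 47 after cyclic loess. Rps15a alone reached 2-fold (6.74 and 7.94), and did so under neither of those scalings. Ribosome biogenesis genes had a median of 0.37, with 57 of 72 above 0, 5 higher by 2-fold or more and 1 lower. The helicase Ddx18 read 4.57 and 6.02 and the core box C/D protein Nop58 4.83 and 6.21, while Rrp15 read 4.85 and 3.44. Aminoacyl-tRNA synthetases had a median of 0.54 over 21 genes, Vars reading 4.22 and 5.45, and proteasome subunits 0.28 over 41 genes, which became 0.045 after quantile normalization. Polyamine synthesis was led by Odc1, its rate-limiting enzyme, at 5.62 and 7.06.

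Nuclear transport and the cytoskeleton differed more. In nuclear transport 9 of 35 genes were higher by 2-fold or more, none lower, and the median was 0.64. The importin Kpna2 read 5.46 and 7.45, the GTPase Ran 7.05 and 8.53, its partner Ranbp1 5.77 and 7.28 and the nucleoporin Nup54 4.14 and 6.09. Tubulin, actin and cell shape genes had 15 of 37 higher by 2-fold or more and a median of 0.85. Stmn1, which destabilises microtubules and is a growth marker, read 2.76 and 6.21. The tubulins Tuba1b, Tuba1c, Tubb2a and Tubb5 read 6.70 and 8.91, 8.63 and 10.47, 5.92 and 7.67, and 6.45 and 8.09. Lgals1 and Anxa5 read 4.78 and 6.79, and 5.72 and 7.68.

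**Figure D4:**
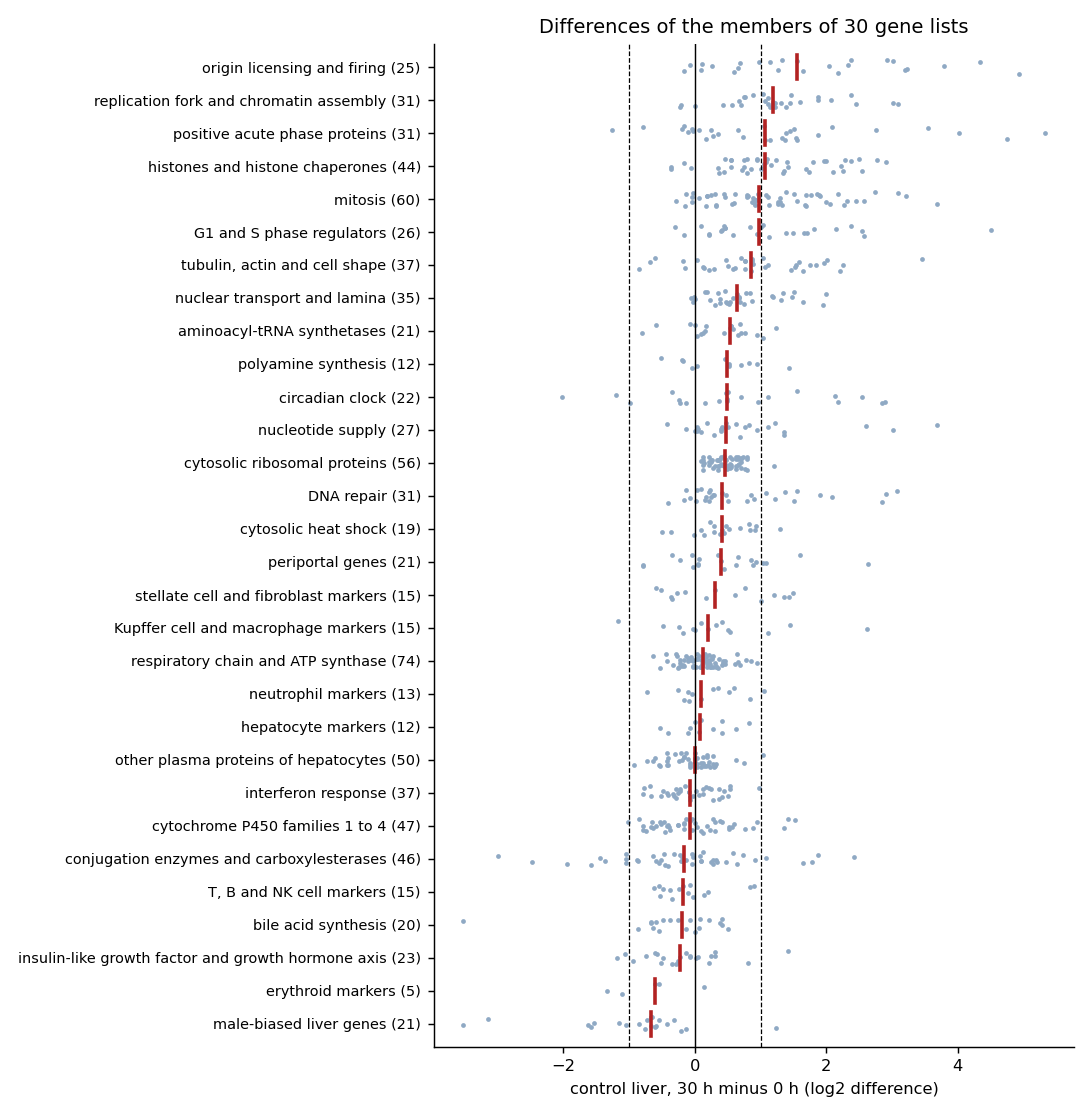
Differences of the members of 30 gene lists in control liver, 30 h minus 0 h (log2, horizontal axis), with 1 point per measured gene, the number of genes in brackets and a red bar at each list's median. Dashed lines mark 2-fold. The largest medians are those of origin licensing (1.56) and the replication fork (1.19), followed by acute phase proteins (1.07). The lowest is that of male-biased genes at -0.67. The 56 ribosomal proteins lie above 0, as 44 of them did after quantile normalization and 47 after cyclic loess.

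Stress programmes were modest. The antioxidant list had 5 of 25 genes higher by 2-fold or more and a median of 0.26, with Cbr1 at 5.95 and 7.38, Srxn1 at 4.74 and 6.04 and glutathione reductase Gsr at 7.04 and 8.13, while catalase (Cat) read 11.69 and 11.03. Endoplasmic reticulum chaperones had a median of 0.02, which turned to -0.22 after quantile normalization, -0.19 after cyclic loess and -0.11 with centring. The cytosolic heat shock list stood at 0.41 over 19 genes, with the chaperonin Hspd1 at 8.62 and 9.46 and Serpinh1, the collagen chaperone, at 3.50 and 4.80. In the integrated stress response the amino acid carriers Slc7a5 and Slc38a2 read 3.41 and 4.76, and 7.96 and 9.14, and Ddit3 differed by -0.42.

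Mitochondrial genes differed little. None of 74 respiratory chain and ATP synthase genes and none of 73 mitochondrial ribosomal proteins was 2-fold apart, with medians of 0.13 and 0.19. The respiratory chain median turned to -0.13 after quantile normalization and -0.09 after cyclic loess. Cycs, cytochrome c, read 9.04 and 9.82. Import and dynamics genes had a median of 0.36 over 40, and the protease subunit Clpx read 7.98 and 6.83. In the citric acid cycle Mdh2 read 6.90 and 8.09 and Idh3a 5.79 and 6.85, and the list median of 0.12 turned to -0.10 after quantile normalization and -0.08 after cyclic loess. Of 12 calcium transport genes none was 2-fold apart, and Vdac1, Vdac2 and Vdac3, the outer membrane channels, differed by 0.52, 0.57 and 0.47.

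Markers of other cells were measured beside these groups, and their part in the differences was not tested. Kupffer cell and macrophage markers had 3 of 15 genes higher by 2-fold or more and 1 lower, a median of 0.20 and a median level of 4.85 at 0 h and 5.54 at 30 h. Marco, a scavenger receptor, read 3.61 and 6.23, Cd5l 6.10 and 7.55 and Vsig4 4.85 and 5.97, but Clec4f, which marks resident Kupffer cells, read 6.09 and 6.19 and Ly6c2, of monocytes, 3.88 and 2.71. Stellate and fibroblast markers had 5 of 15 higher by 2-fold or more, a median of 0.30 and median levels of 4.43 and 4.99. Col1a2 read 3.64 and 5.13, Col3a1 3.41 and 4.84, Des 2.37 and 3.73 and Acta2 3.89 and 5.09, while Lrat, of quiescent stellate cells, read 5.22 and 5.07.

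Sinusoidal endothelial markers had a median of -0.07 over 15 genes and median levels of 5.41 and 5.10, with Oit3 at 5.75 and 4.56 and Tek at 2.27 and 3.28. Neutrophil markers were dim, with levels of 1.88 to 4.23 at 0 h and 2.27 to 3.97 at 30 h. Their median of 0.10 turned to -0.02 with centring. S100a8 read 2.44 and 3.03 and S100a9 3.20 and 3.72. Lymphocyte markers had a median of -0.18 over 15 genes, none 2-fold apart, and cholangiocyte markers -0.04 over 10, which turned to 0.03 after cyclic loess. Of 5 measured erythroid genes Alas2 read 6.90 and 5.80 and Epb42 3.53 and 2.19, and the globin genes are not analysed here. No marker reads 0 on this scale, so a dim value cannot be told from background.

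Matrix genes had a median of 0.08 over 38 genes, which turned to -0.04 with centring, and 4 were higher by 2-fold or more. Beside the collagens, Timp1, an inhibitor of matrix proteases, read 2.36 and 3.69 and fibronectin (Fn1) 9.72 and 10.41. Vessel growth genes had 2 of 24 higher by 2-fold or more and 1 lower, with Vegfa at 5.86 and 6.36 and Adamts1 at 3.81 and 4.83. Chemokine and NF-kappaB target genes had a median of 0.06, which turned to -0.06 with centring. Ccl6 read 5.35 and 6.83 and Cxcl9, induced by interferon gamma, 5.10 and 3.78. In the interferon list none of 37 genes was 2-fold apart and the median was -0.08.

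A separate pair of arrays, of Mcu knockdown liver at 0 h and 30 h, shares no array with the control pair and gives each gene a second reading in animals of another genotype. The description of the knockdown array at 30 h speaks of 1 h after surgery, against its title and time point. The treatment protocol gives Mcu as the floxed gene, while the genotype label of the knockdown arrays does not name Mcu, so calling them Mcu knockdown rests on the protocol. Mcu read 4.77 and 4.30 on the control arrays and 2.83 and 2.63 on the knockdown arrays. In the knockdown pair 531 genes (2.72%) were higher by 2-fold or more and 392 (2.01%) lower by 2-fold or more. Over the brighter genes the differences of both pairs correlated with a Pearson r of 0.46, and over all 19505 genes with 0.28, given as descriptions across genes, which are not independent. Since genes were picked for large control differences, smaller values in the knockdown pair are partly built into the choice.

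Of the 584 brighter genes higher by 2-fold or more in control liver 472 had the same sign in knockdown liver and 153 (26.2%) were 2-fold higher there too. Of the 157 lower, 113 had the same sign and 57 (36.3%) were 2-fold lower there too. Agreement was weaker without the brightness limit. Of all 818 higher genes 610 (74.6%) had the same sign and 182 (22.2%) were 2-fold higher there too. Of all 433 lower genes 251 (58%) had the same sign and 63 (14.5%) were 2-fold lower there too. Of the 40 brighter genes with the largest increases, all 40 had the same sign and 38 were 2-fold higher in knockdown liver. Of the 40 with the largest decreases, 32 had the same sign and 25 were 2-fold lower. Brighter genes were chosen by the mean over all 4 arrays, so knockdown values helped decide which genes entered these counts. Part of the agreement among brighter genes may be built in by that choice. All 16 origin licensing genes higher by 2-fold or more in control liver had a smaller difference in the knockdown pair, as did 19 of 21 of the replication fork, with Uhrf1 (1.88 and 1.96) and Prim1 (1.22 and 1.88) as exceptions. A smaller or opposite difference was general and not particular to these lists. It was found in 765 of all 818 genes higher by 2-fold or more and in 536 of the 584 brighter ones. Levels in knockdown liver were, for example, Mcm6 at 3.88 and 6.23, Ccne2 at 2.45 and 4.94 and Cdt1 at 4.83 and 6.02. Of the 18 acute phase genes 2-fold apart in control liver 3 had a larger difference there than in knockdown liver, among them Orm3 (2.75 and 1.72). Lcn2 read 5.74 and 12.08 in knockdown liver and Mt2 6.02 and 12.03. Car3 (9.85 and 5.47), Cyp8b1 (7.81 and 4.05) and Hsd3b5 (9.83 and 5.95) had decreases close to those of control liver. None of these differences between the pairs was tested.

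**Figure D5:**
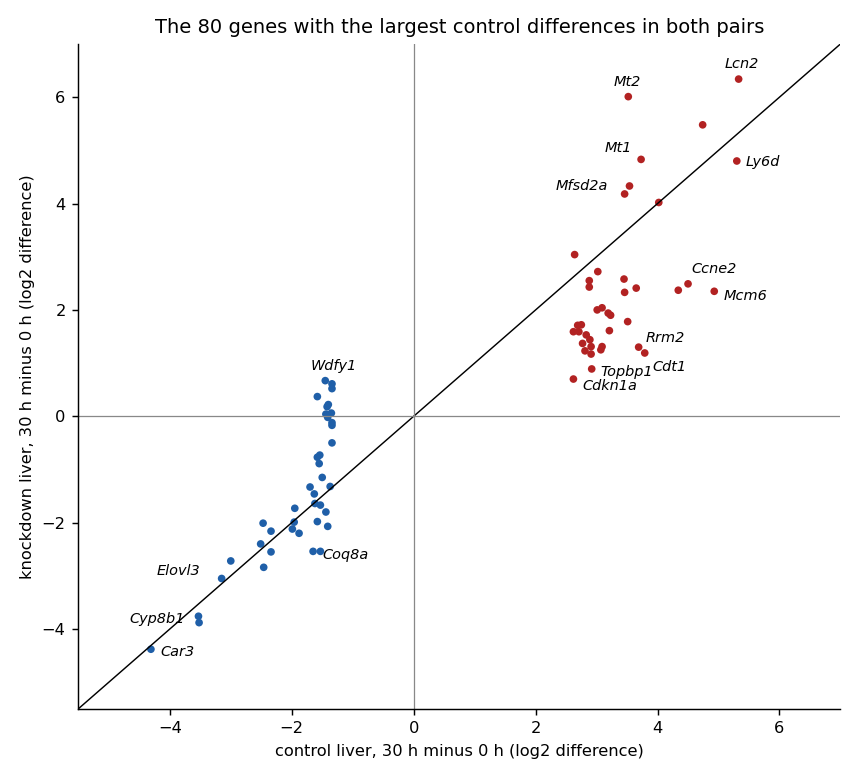
Differences of 80 genes in control liver (horizontal axis, log2, 30 h minus 0 h) and in Mcu knockdown liver (vertical axis, same scale), for the 40 brighter genes with the largest positive (red) and the 40 with the largest negative (blue) control difference. The solid line marks equal differences. Car3 and Cyp8b1 lie near the line, Lcn2 and Mt2 above it, and Mcm6, Cdt1 and Cdkn1a below it.

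Some calls came from 1 control array standing apart from the other 3 arrays. Among the 818 genes higher by 2-fold or more, 112 (13.7%) had control liver at 30 h at least 2-fold above every other array and 53 (6.48%) had control liver at 0 h at least 2-fold below every other array. For the 433 lower genes these counts were 12 and 36. Among brighter genes 2-fold lower, control liver at 0 h stood apart in 7 of 157 and control liver at 30 h in 0. Cdkn1a shows how this looks in a single gene: it read 4.05 and 6.67 in control liver and 5.89 and 6.59 in knockdown liver, so the control array at 0 h was the low one of the 4. Cdt1 read 2.77 and 6.56 in control liver and 4.83 and 6.02 in knockdown liver. Siglec15, at 5.89, 4.47, 4.50 and 4.68 on the arrays of control at 0 h, control at 30 h, knockdown at 0 h and knockdown at 30 h, is such a gene among the decreases.

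Beside the listed genes, the 40 largest increases held 8 genes of no list. Mybl1, a Myb factor, read 2.61 and 6.26, the monocarboxylate carrier family member Slc16a5 3.75 and 7.26 and Fignl1, which acts in recombination, 2.61 and 6.07. Thrombomodulin (Thbd), an anticoagulant receptor, read 3.46 and 6.34, Coq10b 3.10 and 5.93 and Lacc1 3.14 and 5.95. The histone genes H2bc18 and H2ac10 completed the set, at 4.16 and 7.23, and 6.53 and 9.24.

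The 40 largest decreases held 25 genes of no list, of which 17 had the same sign in knockdown liver and 11 were 2-fold lower there. Those described here were chosen after their values were seen, and all are among the latter. Arrdc3 read 7.38 and 4.87, the ubiquitin ligase gene Rnf125 9.34 and 6.88 and the carbonic anhydrase gene Car1 5.82 and 3.48. Tsc22d1 read 7.92 and 5.93, the protease neprilysin (Mme) 5.33 and 3.37 and Depp1 6.46 and 4.58. Sucnr1, the succinate receptor, read 8.08 and 6.55, Coq8a, of coenzyme Q synthesis, 7.55 and 5.90 and Leap2, a peptide of the liver, 6.71 and 5.30. Their differences in knockdown liver ran from -1.99 for Mme to -2.84 for Rnf125. The rest of the 11, Clec2d and Meiob, had smaller differences there, of -1.33 and -1.15. Of the others, Mest differed by -1.58 in control liver and -0.77 in knockdown liver, Fam189a2 by -1.58 and 0.37 and Wdfy1 by -1.45 and 0.67.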

How the data were processed

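Per the labels' protocols, RNA of 4 pooled liver samples was labelled with the GeneChip WT Plus kit for 4 arrays. The submitters' processing notes name RMA and Affymetrix Expression Console, with which the authors made the deposited table, on a log2 scale with a value for each probe set. RMA subtracts background, equalises the arrays and summarises probes, so a shift common to the whole array would be hidden. The genome build, parameters and versions of that step were not given in the sources used here. Values of the control arrays ran from 0.94 to 12.90, with medians of 3.77 at 0 h and 3.75 at 30 h, and the arrays correlated with r = 0.959 across probe sets. Arrays have no sequencing depth, and precision is limited by their number. No background level was used.

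Of 22206 probe sets 19572 had 1 gene symbol and 2634 were unnamed. Names were matched by Entrez ID to RefSeq genes of GRCm38.p6, and 55 of 19505 genes had several probe sets. The difference is 30 h minus 0 h, and genes were counted at 2-fold or more. With 1 array per group nothing was tested and there are no p-values. The 64 gene lists held 1966 symbols, of which 1797 were measured. Members and lists were chosen with earlier results of these data known. Named genes were the 40 brighter genes with the largest difference in each direction, without predicted genes, small RNAs and receptor families of smell, taste and antigen. The 10 members of each list with the largest differences were named too, all members of lists of up to 16, relatives of a named gene, and the genes with promoters shown. Others, among them Hamp, Fgl1, Vegfa, Paics and Atr, follow none of these rules. They were named after their values were seen, which is not said at each of them. Promoter letters were searched on both strands of the RefSeq windows, and counting was tested on simulated data. Alternatives were other brightness limits and thresholds, the mean of probe sets, brighter members only, the mean of members, and quantile, cyclic loess and centred scaling. Python 3.11.15, pandas 2.3.3, numpy 2.4.6, R 4.3.3 and limma 3.58.1 were used. Unnamed probe sets were left out of the comparison. An item in the labels of the knockdown arrays is not reported.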

Additional observations from a re-analysis of the deposited data

Results flagged for a closer look

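Unnamed probe sets, which the comparison left out, also differed between the control arrays. Of 2634 such sets 105 were at least 2-fold higher at 30 h and 58 at least 2-fold lower, with differences from -3.0 to 4.85. These counts are close to the shares over the 19505 named genes, 4.19% higher and 2.22% lower.

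Apln, the ligand of the apelin receptor, had opposite signs in the pairs of arrays, with a difference of -1.27 in control liver and 1.13 in knockdown liver. Slc16a3, a lactate exporter, did likewise, at -1.29 and 1.47. Both genes are dim, and the difference between the pairs was not tested.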

How the results depend on the processing

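The count of genes at least 2-fold higher was 818 and became 295 among genes above percentile 75 of mean expression, 2445 at 1.5-fold and 207 at 3-fold. The count at least 2-fold lower was 433 and became 157 among brighter genes, 60 above percentile 75, 2151 at 1.5-fold, 29 at 3-fold and 697 when arrays were centred on brighter genes. The fatty acid oxidation median, 0.23, became -0.033 after quantile normalization. No other list median of 0.2 or more in size changed sign under quantile, cyclic loess or centred scaling, the mean of probe sets, brighter members or the mean of members. Quantile normalization moved 19 of 64 list medians and 220 of 660 named genes by over 0.2, and cyclic loess 12 and 202, none of the named genes by 1.5-fold or more. With 1 pooled array per group no difference has a replicate check, leaving out a replicate was not possible, and dim signals may understate folds. No paired analysis was possible because each group has 1 array.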

Other observations

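Genes outside the lists were also at least 2-fold apart in the same direction in both pairs of arrays, and those given here were chosen after their values were seen. Alas1, the rate-limiting enzyme of heme synthesis, read 7.85 and 10.08 on the control arrays, a difference of 2.23, and differed by 2.12 in knockdown liver. Slc20a1, a phosphate importer, differed by 2.51 and 2.68, and Nrg4, a secreted ligand of ErbB4, by 2.05 and 2.32. Nnmt, which methylates nicotinamide, differed by 2.14 and 1.97, and Rcan1, a feedback inhibitor of calcineurin, by 2.33 and 1.90. The transglutaminase Tgm2 differed by 2.22 and 1.49, and Gas6, the ligand of the TAM receptors, by 1.34 and 1.32. Fkbp5, a glucocorticoid-induced chaperone partner, differed by 1.77 and 1.21.

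Genes lower at 30 h in both pairs included Pdcd4, an inhibitor of translation, at -1.24 and -1.44, and Hsd11b1, which regenerates active glucocorticoid, at -1.01 and -1.14. Selenbp1 differed by -1.08 and -1.36, the Wnt receptor gene Fzd8 by -1.33 and -1.33, and Pth1r, the parathyroid hormone receptor, by -1.01 and -1.07.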
